A study of Mus musculus with 4 samples.

Results

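The sodium-potassium pump genes described here are 7 of the 21462 genes in the deposited table: the alpha subunit gene *Atp1a4*, the beta subunit genes *Atp1b1*, *Atp1b2* and *Atp1b3*, and the regulator genes *Fxyd1*, *Fxyd5* and *Fxyd6*. They were found by gene symbol, and all 7 were present. The set was assembled around *Atp1a4* because its values differed between the groups of this same comparison, so differences of the members between the groups are given as a description, with no test. RNA was sequenced from smooth muscle cells (SMCs) that had been sorted from the lungs of C57BL/6 mice, in 2 libraries from *Tet3* mutant and 2 from control animals. TET3 oxidizes 5-methylcytosine in DNA to 5-hydroxymethylcytosine.

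By the study's methods, the mutants carried floxed *Tet3* alleles, a tamoxifen-inducible Cre driven by the smooth muscle actin promoter and a *tdTomato* reporter. Controls lacked the floxed allele and carried the Cre, the reporter or both. Adult animals were given tamoxifen, hematopoietic cells were depleted with CD45 and Ter-119 beads, and live tdTomato-positive cells were sorted. The labels give neither sex nor batch.

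The pump moves sodium out of cells and potassium into them at the expense of ATP. The resulting gradients set the membrane potential and drive other transporters, and in smooth muscle they also set how well calcium is cleared by sodium-calcium exchange. Its alpha subunit splits ATP, carries the ions and binds cardiac glycosides such as ouabain. The beta subunit is a glycoprotein needed for folding of the alpha subunit and its delivery to the plasma membrane, and the small FXYD proteins associate with the complex and tune its kinetics. The alpha isoform encoded by *Atp1a4* is known chiefly from testis and sperm.

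Promoter sequences are shown for *Atp1a4*, which had the largest difference between the groups, for *Fxyd6*, which had the largest positive difference of the members, and for *Atp1b1*, the other member that was lower in both mutants. Each runs 5′ to 3′ over 250 bases before and 50 after the RefSeq start (GRCm38.p6), with CG dinucleotides, the substrate context of DNA methylation, in capitals. *Atp1a4* lies at chr1:172258375-172258674 and *Atp1b1* at chr1:164458306-164458605, both on the minus strand, and *Fxyd6* at chr9:45369935-45370234 on the plus strand.
Atp1a4: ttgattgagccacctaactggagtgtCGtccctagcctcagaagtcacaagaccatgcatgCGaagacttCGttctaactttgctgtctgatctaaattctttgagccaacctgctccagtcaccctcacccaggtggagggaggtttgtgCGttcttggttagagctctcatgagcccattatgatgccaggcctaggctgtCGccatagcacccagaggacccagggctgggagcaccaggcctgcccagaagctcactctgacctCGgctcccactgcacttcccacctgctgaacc
Fxyd6: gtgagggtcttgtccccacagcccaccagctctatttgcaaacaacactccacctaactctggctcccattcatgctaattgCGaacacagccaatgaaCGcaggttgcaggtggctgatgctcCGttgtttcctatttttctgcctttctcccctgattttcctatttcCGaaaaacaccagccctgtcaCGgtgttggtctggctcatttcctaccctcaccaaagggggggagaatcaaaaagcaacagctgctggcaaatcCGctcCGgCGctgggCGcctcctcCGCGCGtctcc
Atp1b1: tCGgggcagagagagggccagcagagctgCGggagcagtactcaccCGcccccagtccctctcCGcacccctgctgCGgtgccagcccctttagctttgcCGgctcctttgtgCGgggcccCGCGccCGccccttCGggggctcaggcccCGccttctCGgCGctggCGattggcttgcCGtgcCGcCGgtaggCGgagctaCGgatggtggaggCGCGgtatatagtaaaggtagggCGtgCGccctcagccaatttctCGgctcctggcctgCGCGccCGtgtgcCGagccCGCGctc
These windows held 6 CG dinucleotides in *Atp1a4*, 12 in *Fxyd6* and 31 in *Atp1b1*, against a median of 7 over 32817 promoter windows of the same length. Sequences were found for 6 of the 7 members. *Fxyd1* and *Fxyd5* each held 6, and the 2 windows of *Atp1b3* held 39 and 34. A CG was present in 94.6% of all windows. The GC box (GGGCGG, either strand, counted with overlaps) was found in *Atp1b1*, with 2 copies, and in one window of *Atp1b3*, with 6 copies, and in 35.6% of all windows. The CArG box, a motif read by serum response factor, was in none of the members' windows and in 1.63% of all. Of all windows, 43.6% held fewer CG than that of *Atp1a4* and 89.4% fewer than that of *Atp1b1*. DNA methylation at these windows was not analysed here.

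Values are normalized counts: reads per gene that the authors scaled between libraries and rounded to whole numbers. Each library rests on an estimated 6.32 M to 7.56 M reads in genes. *Tet3* itself stood at 1847 and 1926 in the controls against 1534 and 1444 in the mutants, with replicate 1 named first here and throughout. Control replicate 2 stood apart from the other libraries. It had 2 normalized counts of the X-linked RNA *Xist* and 774 of the Y-linked gene *Ddx3y*, where the 3 others had 5214 to 6781 of *Xist* and 0 of *Ddx3y*. By these genes control replicate 2 reads as male and the others as female, so sex was not balanced between the groups. All 10 smooth muscle markers examined were present in every library, with a summed level of 5108 and 6747 in the controls against 7952 and 7612 in the mutants. Markers of other lung cells were present as well, so the members' values are not those of smooth muscle cells alone. The 8 fibroblast markers summed to 20836 and 17878 in the controls against 22689 and 19905 in the mutants. For 10 endothelial markers the sums were 15119 and 14690 against 16142 and 15671, and for 12 macrophage markers 9289 and 7646 against 9738 and 11251. The 10 markers of alveolar type 2 epithelium, the surfactant-producing cells, summed to 17813 and 27128 in the controls against 12200 and 16062 in the mutants, and none of them was at 0. Sums over different genes are not compared with each other, because gene lengths differ.

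Log2 fold changes compare mutants with controls as differences of mean log2(value + 1), which understates changes of low genes. They are given with the moderated standard error of a limma fit over the 16659 genes with a mean of at least 10. All 7 members passed this filter. At a limma adjusted p under 0.05, 0% of the genes tested were called (0 of 16659, members included), and 1112 genes, 6.68%, had an unadjusted p under 0.05. With 1 library left out the latter count ran from 273 without mutant replicate 1 to 3366 without control replicate 1, and without the mean-variance trend 1 gene, *Hal*, was called. Both mutants lay above both controls for 4 members and below them for 2, and the groups overlapped for 1. Over all genes tested the groups did not overlap in 39.0%, with mutants above in 19.6% and below in 19.5%. Nothing is read from the members' counts, since they were chosen on this comparison. The members' median log2 fold change was 0.13, and that of all genes tested was -0.01.

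**Figure D1:**
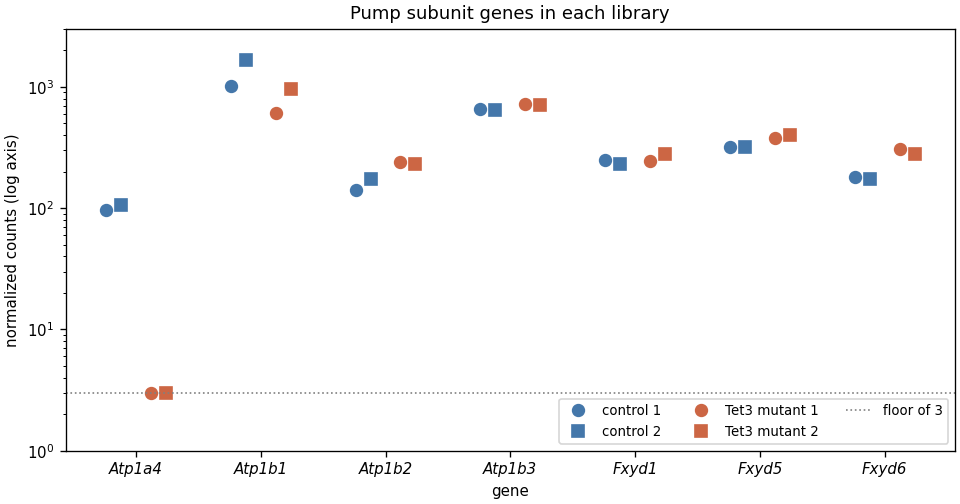
Normalized counts (log axis) of the 7 pump genes in each library, with blue for controls, orange for *Tet3* mutants, circles for replicate 1 and squares for replicate 2. The dotted line marks the floor of 3. *Atp1a4* drops from 97 and 106 in controls to 3 in each mutant, and the other genes stay between 142 and 1653 in all 4 libraries.

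*Atp1a4*, the alpha subunit gene (ENSMUSG00000007107, chromosome 1, 172223513 to 172258414, minus strand) was at 97 and 106 normalized counts in the controls against 3 in either mutant. Both controls were close to each other, both mutants were equal, and the mutant value is at the floor of 3 counts, under which a count cannot be separated from 0 by counting error alone. The reads carry no molecular identifiers, so some may be copies of 1 molecule. Controls averaged 101.5 ± 6.36 (SD, n = 2), and the log2 fold change was -4.68 ± 0.38 (SE). The scaling factor of each library, estimated from which low whole numbers are missing or doubled, gives the reads behind these values. They were an estimated 101 reads in each control and 3 in each mutant. The level per read counted in genes was 33.2 times as high in controls as in mutants, with an exact 95% interval of 15.0 to 91.4 that covers counting error only. It pools the reads of the libraries of each group and leaves out the spread between samples. The gene was chosen for this difference, so the interval is no test of it.

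Only 3 tested genes, *Atp1a4* included, had a log2 fold change at or below its own. One of them lies on the Y chromosome, and in the remaining pair, *Atp1a4* and *Hal*, both mutants were below both controls. The gene model has 23 exons in its longest transcript, which is 3470 bases long. An antisense gene model, *Gm37950*, lies within the gene on the opposite strand and shares 0 exonic bases with it. The alpha genes are similar in sequence, and reads that aligned to several places were excluded by the authors, so reads from stretches identical between alpha genes are not in these values.

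Of the beta subunits, *Atp1b1* (ENSMUSG00000026576, chromosome 1, 164437109 to 164458355), the beta subunit of most epithelia, stood at 1008 and 1653 normalized counts in the controls against 606 and 962 in the mutants. Both mutants were below both controls, but mutant replicate 2 came close to control replicate 1, and each group was spread widely. The means were 1330.5 ± 456 in controls and 784 ± 252 in mutants (SD, n = 2 each), with a log2 fold change of -0.76 and a standard error of 0.32. It was -0.40 without control replicate 2 and -0.42 without mutant replicate 1. An exonic stretch of 575 bases, 18.7% of its exon length, overlaps *Nme7* on the opposite strand, and use of the strand in counting is not stated in the methods.

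*Atp1b1* followed the order of the alveolar type 2 markers through all 4 libraries. Of the 10 markers, 9 were lower in both mutants than in both controls, and 0 were higher. Per 1000 normalized counts of the summed markers, *Atp1b1* had 56.6 and 60.9 in the controls against 49.7 and 59.9 in the mutants, values that overlap between the groups and whose highest is 1.23 times the lowest. Per 1000 of the alveolar type 1 sum, from 8 markers of the flat cells of the alveolar wall, it had 235 and 260 (controls) against 171 and 208 (mutants), which do not overlap, with the highest 1.52 times the lowest. Relative to the summed smooth muscle markers the same gene had 197 and 245 in the controls against 76.2 and 126 in the mutants. These lists were set beside *Atp1b1* after its values were seen. The part of the epithelial RNA in the *Atp1b1* difference was not tested. In bulk RNA, fewer cells of a type and less RNA per cell cannot be told apart.

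*Atp1b2* (ENSMUSG00000041329, chromosome 11, 69599736 to 69605942) encodes the beta subunit first described as an adhesion molecule on glia. It stood at 142 and 173 normalized counts in the controls against 238 and 231 in the mutants. Both mutants were above both controls and close to each other. The mean was 157.5 ± 21.9 in controls and 234.5 ± 4.95 in mutants (SD, n = 2 each), with a log2 fold change of 0.58 and a standard error of 0.18. The widely expressed *Atp1b3* (ENSMUSG00000032412, chromosome 9, 96332655 to 96364442) stood at 662 and 644 against 722 and 707. The groups did not overlap, though the difference was small, at a mean of 653 ± 12.7 against 714.5 ± 10.6 (SD, n = 2 each) and a log2 fold change of 0.13 ± 0.10 (SE).

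Levels can be compared between genes per kilobase of merged exons. On that scale the beta class was made up mostly of *Atp1b1* and *Atp1b3*. *Atp1b1* took 51.2% and 63.2% of the beta level per kilobase in controls and 35.3% and 47.0% in mutants. *Atp1b3* took 43.4% and 31.8% in the controls against 54.2% and 44.5% in the mutants, and *Atp1b2* took 5.44% and 4.99% in the controls against 10.5% and 8.51% in the mutants. Shares are relative, so a lower *Atp1b1* raises those of the other beta genes. The mean level per kilobase went from 432 to 254 for *Atp1b1*, from 273 to 299 for *Atp1b3* and from 38.6 to 57.4 for *Atp1b2*. The summed beta level was 639 and 848 normalized counts per kilobase in the controls against 557 and 665 in the mutants, so the groups overlapped.

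*Fxyd6* (ENSMUSG00000066705, chromosome 9, 45370185 to 45396159) encodes a pump regulator known from the nervous system. It stood at 179 and 175 normalized counts in the controls against 308 and 277 in the mutants. Controls were nearly equal and both mutants lay well above them, at a mean of 177 ± 2.83 against 292.5 ± 21.9 (SD, n = 2 each) and with a log2 fold change of 0.72 ± 0.15 (SE). *Fxyd5* (ENSMUSG00000009687, chromosome 7, 31032722 to 31042481), also called dysadherin and known to affect cell adhesion, stood at 319 and 322 against 376 and 403. The mutants were again above both controls, with a mean of 389.5 ± 19.1 against 320.5 ± 2.12 (SD, n = 2 each) and a log2 fold change of 0.28 ± 0.13 (SE).

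*Fxyd1* (ENSMUSG00000036570, chromosome 7, 31051678 to 31057199) encodes phospholemman, the regulator of the pump in heart and other muscle. It stood at 249 and 229 normalized counts in the controls against 243 and 277 in the mutants, and mutant replicate 1 lay between the controls. The log2 fold change was 0.12 ± 0.16 (SE), and it was 0.03 without mutant replicate 2, 0.06 without control replicate 2 and 0.21 without mutant replicate 1. The study placed *Atp1b3* and *Fxyd5* among the genes it calls spuriously transcribed, a list chosen with these samples and therefore not independent evidence of their direction.

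**Figure D2:**
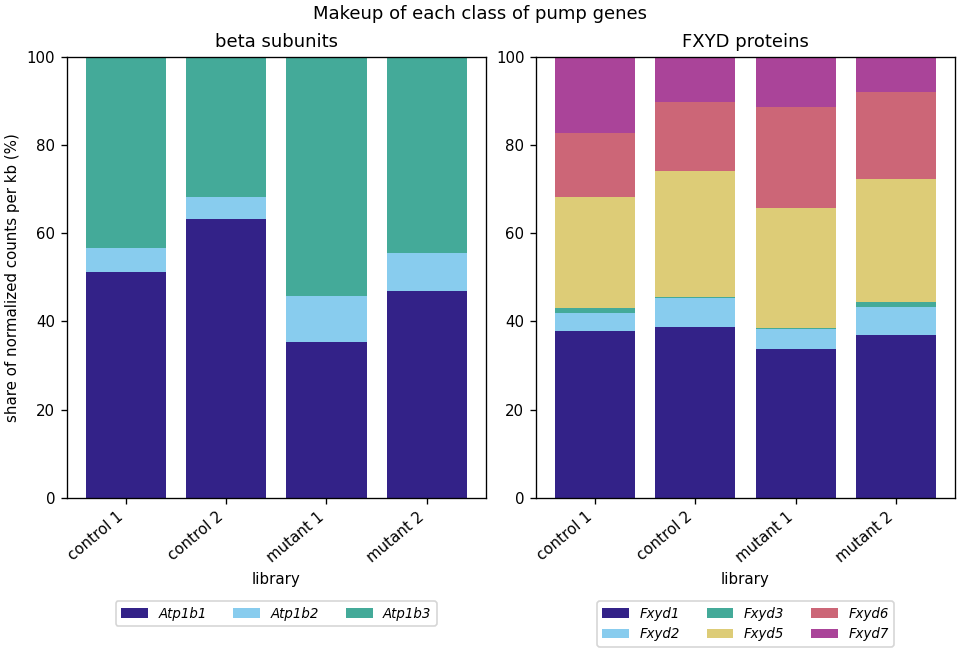
Share (%) of each gene in the summed level per kilobase of merged exons of its class, by library: 3 beta subunits (left) and 6 FXYD genes (right), stacked to 100%. The *Atp1b2* band widens from 5.44% and 4.99% (controls) to 10.5% and 8.51% (mutants), and the *Fxyd6* band from 14.5% and 15.8% to 22.8% and 19.6%. Shares are relative, so a band also widens where another gene of its class is lower.

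Members that were higher in the mutants can be set beside the smooth muscle and pericyte markers, which were chosen for this after the values were seen. Of the 10 smooth muscle markers, 7 were above both controls in both mutants and 0 below. Of the 8 pericyte markers, whose sum was 4578 and 4844 in the controls against 6532 and 5633 in the mutants, 6 were above and 1 below. Other lists were also higher as sums in both mutants, among them ciliated cells (8 of 10 markers above both controls, 0 below, mutant over control 1.47), macrophages (7 of 12, 0 below, 1.24), T cells (5 of 10, 0 below, 1.66), neutrophils (5 of 7, 0 below, 1.71), cardiomyocytes (4 of 8, 0 below, 1.35) and endothelium (3 of 10, 0 below, 1.07). The T cell sum was 1062 and 314 in the controls against 1131 and 1147 in the mutants, so its ratio comes largely from the low control replicate 2. Ciliated sums were 3358 and 3811 against 6236 and 4328, and neutrophil sums 1119 and 834 against 1982 and 1366. Cardiomyocyte sums were 640 and 692 against 1022 and 779. The members were not set against these sums. Per 1000 normalized counts of the smooth muscle sum, *Atp1b2* had 27.8 and 25.6 in the controls against 29.9 and 30.3 in the mutants. *Fxyd6* had 35.0 and 25.9 in the controls against 38.7 and 36.4 in the mutants. On this scale both genes were still higher in both mutants, by less than the spread between the controls for *Fxyd6*, and the highest value of *Atp1b2* was 1.18 times the lowest. The study itself reports more reads of contractile genes, *Acta2* and *Cnn1* among them, in the mutants, and ascribes them to spurious transcription. By semiquantitative PCR it found less full-length mRNA of such genes. *Myh11* is also among the genes it names as spuriously transcribed. *Acta2*, *Cnn1* and *Myh11* are in the smooth muscle sum, so this scale is not independent of the mutation, here and for *Atp1b1* above. Per 1000 of the pericyte sum, *Fxyd6* had 39.1 and 36.1 (controls) against 47.2 and 49.2 (mutants), a difference larger than the spread within either group. *Atp1b2* had 31.0 and 35.7 against 36.4 and 41.0 there. *Fxyd5* overlapped between the groups on the smooth muscle and pericyte scales, and *Atp1b3* was lower in the mutants on both. Per 1000 of the fibroblast sum, *Fxyd6* had 8.59 and 9.79 in the controls against 13.6 and 13.9 in the mutants. *Atp1b2* had 6.82 and 9.68 against 10.5 and 11.6 on that scale, where *Fxyd5* and *Atp1b3* overlapped between the groups. For *Atp1a4* the smooth muscle scale gave 19.0 and 15.7 in the controls against 0.38 and 0.39 in the mutants. The part of the marker differences in the members' differences was not tested.

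**Figure D3:**
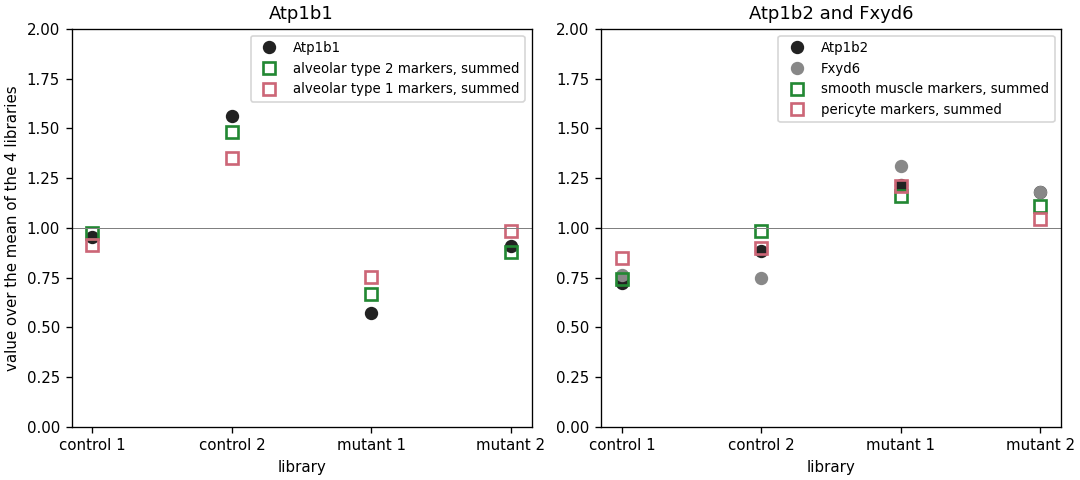
Each value divided by its mean over the 4 libraries, for *Atp1b1* beside the summed alveolar type 2 and type 1 markers (left) and for *Atp1b2* and *Fxyd6* beside the summed smooth muscle and pericyte markers (right). Filled circles are single genes and open squares are sums of 8 or 10 markers. *Atp1b1* and the alveolar type 2 sum are both highest in control replicate 2 and lowest in mutant replicate 1.

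The 3 FXYD genes in the table that are not among the members overlapped between the groups. *Fxyd2*, the renal regulator of the pump, stood at 50 and 69 normalized counts in the controls against 58 and 89 in the mutants (limma adjusted p 0.828). *Fxyd7* stood at 36 and 19 against 26 and 19 (limma adjusted p 0.908). *Fxyd3* stood at 16 and 5 against 5 and 20 (limma adjusted p 0.969). Leaving out single libraries turned the direction of all 3, and 42.5% of the exon length of *Fxyd3* overlaps *Lgi4* on the opposite strand. *Atp1b4* and *Fxyd4* were not analysed here. FXYD genes lie in 2 groups. *Fxyd5*, *Fxyd7*, *Fxyd1* and *Fxyd3* follow each other on the minus strand of chromosome 7 between 31032722 and 31076704, and *Fxyd6* and *Fxyd2* on the plus strand of chromosome 9 between 45370185 and 45410278. Within each group, one gene that was higher in both mutants has neighbours that overlapped between the groups.

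Ordered by level per kilobase of merged exons in controls, the members ran from *Atp1b1* (432 ± 148 normalized counts per kilobase, SD, n = 2) over *Atp1b3* (273 ± 5.33), *Fxyd1* (109 ± 6.47), *Fxyd5* (76.5 ± 0.51), *Fxyd6* (43.1 ± 0.69) and *Atp1b2* (38.6 ± 5.37) to *Atp1a4* (27.7 ± 1.74). *Fxyd6* and *Atp1b2* differed by less than the spread between the controls of *Atp1b2*. In mutants the order was *Atp1b3* (299 ± 4.44), *Atp1b1* (254 ± 81.7), *Fxyd1* (119 ± 11.0), *Fxyd5* (92.9 ± 4.55), *Fxyd6* (71.2 ± 5.34), *Atp1b2* (57.4 ± 1.21) and *Atp1a4* (0.82 in both). The first pair there differed by less than the spread of *Atp1b1*. *Fxyd1* has 17 annotated transcripts, and on the length of the longest, 668 bases against 2186 of merged exons, it stood at 358 normalized counts per kilobase in controls, above *Atp1b3* at 327.

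**Figure D4:**
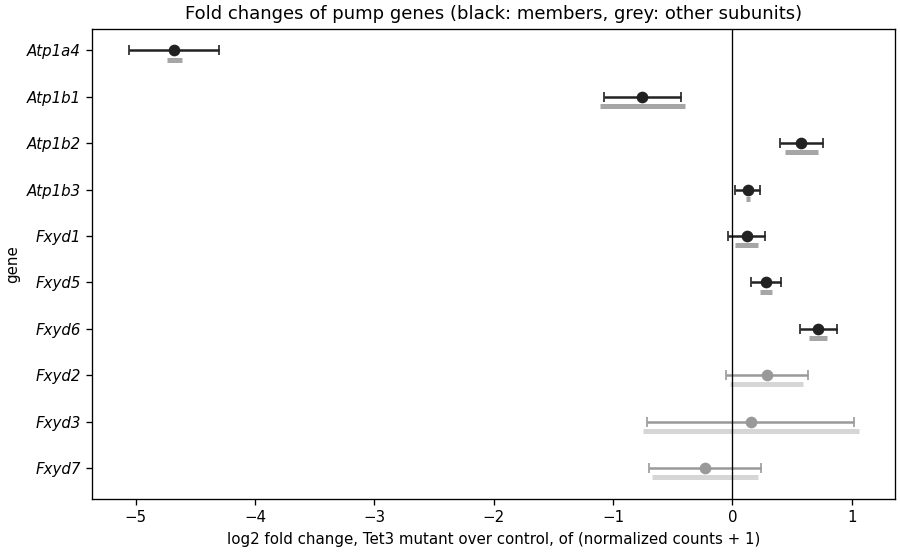
Log2 fold changes, *Tet3* mutant over control, of (normalized counts + 1) for the 7 members (black) and 3 other FXYD genes (grey). Points carry the moderated standard error (n = 2 each), and the thick bar under each point spans the values with 1 library left out. *Atp1a4* lies at -4.68, apart from all others, and the bars of the grey genes cross 0.

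Genes around *Atp1a4* were examined for its surroundings on the chromosome. Within 500 kb of it the table held 27 other genes, of which 23 were tested. The nearest on either side overlapped between the groups or were higher in mutants. *Casq1*, the calsequestrin gene of skeletal muscle that lies 3.645 kb below *Atp1a4*, stood at 24 and 15 normalized counts in the controls against 13 and 16 in the mutants (limma adjusted p 0.828). *Igsf8*, which starts 3.23 kb above it, stood at 294 and 340 against 302 and 398 (limma adjusted p 0.860). Farther out, *Dcaf8* stood at 1530 and 1789 against 1572 and 1489 (limma adjusted p 0.806), and *Kcnj10* stood at 39 and 47 against 57 and 56 (limma adjusted p 0.728).

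Of the 23 tested neighbours, 0 passed the limma adjusted threshold, 4 had an unadjusted p under 0.05 with higher values in mutants, and 0 had one with lower values. Over all genes tested these shares were 3.83% and 2.85%. The 4 were *Pea15a* (914 and 898 in controls, 1064 and 1113 in mutants), *Cd84* (451 and 289, then 576 and 566), *Cfap45* (107 and 124, then 171 and 159) and *Slamf8* (41 and 82, then 104 and 149), and each had a limma adjusted p of 0.681. In place of 4 there were 0 such genes without mutant replicate 1 and 1 without mutant replicate 2. The neighbours' log2 fold changes lay between -0.42 and 1.36, with a median of 0.26. The low values of *Atp1a4* in the mutants were therefore not shared by any tested gene within 500 kb.

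**Figure D5:**
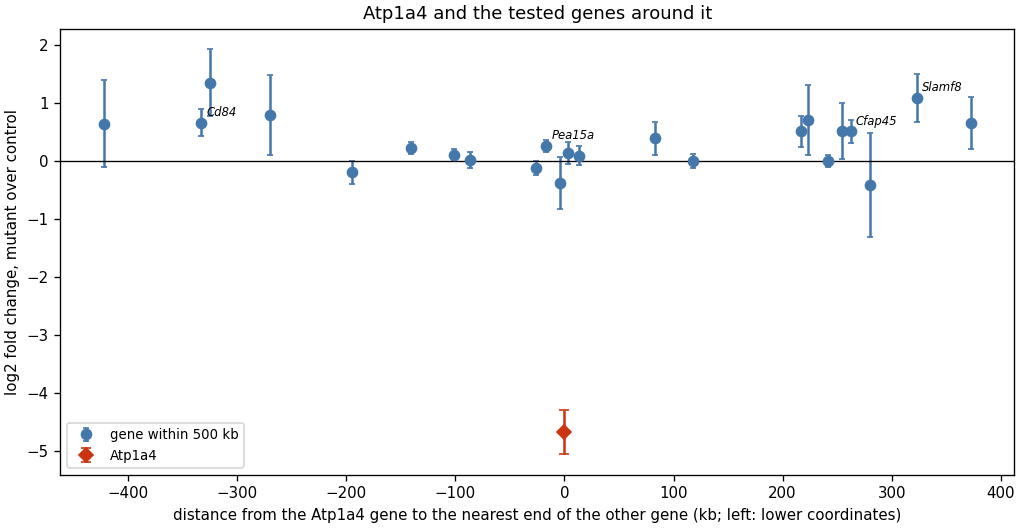
Log2 fold change with its moderated standard error against the distance (kb) between *Atp1a4* and the nearest end of each tested gene within 500 kb. The red diamond is *Atp1a4* at -4.68, the blue points are the 23 neighbours between -0.42 and 1.36, and names mark the 4 with an unadjusted p under 0.05.

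The pattern over the 4 libraries most like that of *Atp1a4*, by Euclidean distance of log2(value + 1) centred on each gene's mean, was that of *Gm49167*, a gene model of unsettled type on chromosome 10 (33 and 16 normalized counts in controls, 1 in each mutant, distance 1.35). It was followed by *Zan*, which encodes the sperm protein zonadhesin (37 and 193, then 5 in each mutant, distance 1.78), *Alb*, the albumin gene (12 and 35, then 0 and 2, distance 1.80), *Hal*, the histidine ammonia-lyase gene (279 and 291, then 2 in each mutant, distance 1.90), and the immunoglobulin segment *Igkv8-19* (31 and 29, then 4 in each mutant, distance 2.05). *Hal* lies on chromosome 10, as *Gm49167* does. The mutant values of *Gm49167*, *Alb* and *Hal* are under the floor of 3 counts. A flat profile lies at a distance of 4.68 from *Atp1a4*. These distances rest on 4 libraries and describe the comparison that chose *Atp1a4*.

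The pathway was followed beyond the members in lists of other pump subunits, pump regulators and partners, and sodium and potassium transporters. Of their 39 genes, 36 were in the table and 35 were tested. By limma, 0 passed the adjusted threshold, 1 had an unadjusted p under 0.05 with a higher value in mutants and 5 had one with a lower value, where the shares over all genes tested were 3.83% and 2.85%. These 6 became 15 without control replicate 1, 3 without control replicate 2, 1 without mutant replicate 1 and 3 without mutant replicate 2. The median log2 fold change was 0.15 for 3 other subunits, -0.36 for 12 regulators and partners and -0.05 for 20 transporters, against -0.01 for all genes tested.

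Of the regulators, *Sik1*, a salt-inducible kinase that acts on the pump, stood at 1353 and 1260 normalized counts in the controls against 691 and 874 in the mutants, a log2 fold change of -0.75 ± 0.15 (SE). The ankyrin gene *Ank3*, whose product anchors the pump in epithelia, stood at 1822 and 5935 against 1013 and 1354, with a log2 fold change of -1.49 that was -0.64 without control replicate 2. *Ank2*, the ankyrin of heart and muscle, stood at 410 and 347 against 544 and 467. All 3 had a limma adjusted p of 0.681. *Nedd4l*, a ubiquitin ligase that removes sodium channels from the membrane, stood at 891 and 1907 against 716 and 788 (limma adjusted p 0.681), and the caveolin gene *Cav1* stood at 1403 and 1189 against 1429 and 1476 (limma adjusted p 0.727). *Ank3* and *Nedd4l* had the order of *Atp1b1* and of the alveolar type 2 sum over all libraries, highest in control replicate 2 and lowest in mutant replicate 1. *Sik1*, *Ank2* and *Cav1* had other orders.

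Of the sodium and potassium transporters, *Slc12a2*, the sodium-potassium-chloride cotransporter, stood at 1561 and 2669 normalized counts in the controls against 1061 and 1279 in the mutants. The sodium bicarbonate cotransporter gene *Slc4a4* stood at 585 and 597 against 446 and 423, a log2 fold change of -0.44 ± 0.11 (SE), and the sodium-glucose cotransporter gene *Slc5a1* stood at 55 and 60 against 10 and 33. These 3 were below both controls in both mutants and had a limma adjusted p of 0.681. *Slc12a2* and *Slc5a1*, but not *Slc4a4*, had the order of the alveolar type 2 sum over all libraries. The part of epithelial RNA in these differences was not tested. The sodium-calcium exchanger gene *Slc8a1*, by which the pump acts on calcium in muscle, stood at 1538 and 815 against 1409 and 1338 (limma adjusted p 0.798). The amino acid carrier gene *Slc38a2* stood at 1643 and 1507 against 1409 and 1390 (limma adjusted p 0.701), and the potassium-chloride cotransporter gene *Slc12a4* at 1135 and 946 against 1091 and 1034, which overlap.

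With 2 against 2 samples an exact permutation test cannot give a p below 0.333, so none was run on single values. Without control replicate 2, the library that stood apart, the log2 fold changes were -4.61 for *Atp1a4*, -0.40 for *Atp1b1*, 0.72 for *Atp1b2*, 0.11 for *Atp1b3*, 0.06 for *Fxyd1*, 0.29 for *Fxyd5* and 0.70 for *Fxyd6*.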

How the data were processed

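Per the methods and the submitters' processing notes, the authors depleted ribosomal RNA, made stranded total RNA libraries, trimmed reads with Trimmomatic 0.36, aligned them with STAR 2.6.0c to GRCm38 and counted exonic reads with featureCounts (Subread 1.6.0), leaving out reads of several genes or places. The deposited values are a score, namely counts per gene to which the authors applied DESeq2 size factors and rounding. They are not raw counts, so no count model was fitted. Deposited totals were 6805272 to 7164573 per library. Groups and replicate numbers came from the sample titles. The labels do not say that replicates are separate animals, which the study describes as independent, so SDs measure the spread between these samples. The moderated standard errors of the log2 fold changes also draw on the spread of other genes.

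Values were compared as log2(value + 1) with limma 3.58.1 in R 4.3.3 (mean-variance trend, Benjamini-Hochberg adjustment, threshold 0.05) over the 16659 genes whose mean reached 10, tested on simulated data. Exon lengths came from GENCODE M21 (GRCm38), where the pump genes had the coordinates of the table, and promoters from RefSeq (GRCm38.p6). Alternatives were a pseudocount of 0.5 or 8, a minimum mean of 1 or 50, scaling by TMM (trimmed mean of M values) or to equal totals, no trend, a replicate block, each library left out, and the longest transcript as length.

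The members and gene lists were chosen with earlier results of these data known. Some genes that these rules select are not reported here. Named are all members and other pump subunits, list genes with an unadjusted p under 0.05 or among the 4 highest means, the 3 nearest tested genes on either side of *Atp1a4* and those within 500 kb with an unadjusted p under 0.05, and the 5 genes nearest to it in pattern.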

Additional observations from a re-analysis of the deposited data

How the results depend on the processing

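The direction of all 7 members held under every setting run, which is no support for their differences. Where the groups did not overlap, leaving out a library or changing the pseudocount could not turn the direction. The minimum mean, the trend and the replicate block left the estimates unchanged. *Atp1a4* moved with the pseudocount, from -4.68 to -4.86 at 0.5 and -3.31 at 8, since its mutant values are at the floor, and ranged from -4.74 to -4.61 with 1 library left out, where the lone sample of a group is assumed to vary like the other group. Equal library totals put *Atp1b3* at 0.18. The count of genes called was 0 except without the trend, where it was 1 (*Hal*, limma adjusted p 0.0307; in the other fits the smallest adjusted p lay between 0.0753 and 0.998). Equal totals changed the split of genes with an unadjusted p under 0.05 from 638 higher and 474 lower to 796 and 355, and omitting the trend to 722 and 416. List genes at an unadjusted p under 0.05 numbered 6, with 2 without the trend and 1 to 15 with 1 library left out (1 without Tet3 mutant replicate 1, 15 without control replicate 1). Neighbours of *Atp1a4* at that p numbered 4, with 1 without the trend, 2 with the replicate block and 0 to 5 with 1 library left out, settings added after the data were seen. The cause of these shifts was not tested. On the longest transcript, control levels per kilobase were 327 for *Atp1b3*, 358 for *Fxyd1*, 107 for *Fxyd5* and 74.9 for *Fxyd6*.

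Control and mutant samples share replicate numbers, but deviations of same-numbered samples correlated across 16659 genes by only 0.13 (Pearson) and 0.12 (Spearman) over 2 pairs, and pairing by number is not established. With the replicate block 0 genes were called, 1637 had an unadjusted p under 0.05 (700 higher, 937 lower), and the log2 fold change of *Atp1a4* was -4.68.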

Other observations

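Calcium pumps, relatives of the sodium-potassium pump that clear calcium from the cytosol of smooth muscle, were followed as well. Of 11 genes of this list in the table, 7 were tested, with a median log2 fold change of -0.01. By limma 0 passed the adjusted threshold and 1 had an unadjusted p under 0.05. This was *Atp2b4*, a plasma membrane calcium pump, at 1870 and 1646 normalized counts in the controls against 2276 and 2092 in the mutants (log2 fold change 0.31, standard error 0.12, limma adjusted p 0.681). *Atp2b1*, the widespread form, stood at 2234 and 2261 against 2325 and 2067. The sarcoplasmic reticulum pump gene *Atp2a2* stood at 1786 and 2242 against 1990 and 1995, and *Atp2a3* stood at 1521 and 1969 against 1440 and 1495. Only *Atp2b4* and *Atp2a3* among the 7 had groups that did not overlap, where 39.0% of all genes tested did not.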
